A study of Mus musculus with 2 samples.

Results

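The transforming growth factor beta (TGF-beta) and interleukin-10 axis was followed here through 9 genes, chosen by symbol from the 31053 genes that both libraries list: Tgfb1, Itgb8, Lrrc32, Tgfbr1, Tgfbr2, Smad7, Il10, Il10ra and Il10rb. All 9 were found in the gene lists of both libraries. Their RNA was counted in leukocytes of B16-F10 tumours, a mouse melanoma line that had been placed under the skin of the right flank of 10-week-old female C57BL/6 mice of wild-type genotype. There were 2 libraries, 1 from mice given an agonist antibody to OX40, the receptor encoded by Tnfrsf4 through which activated T cells are costimulated, and 1 from control mice. Cells were sorted as CD45-positive and DAPI-negative, per the labels' protocol, and run on 10x Genomics Chromium with 3′ v3 chemistry. The design text of the series writes the DAPI sign the other way. The number of mice behind each library, the dose and the schedule of the antibody, and what control mice received are not given in the sources used here. Both groups carried this same transplanted line.

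TGF-beta 1, encoded by Tgfb1, is secreted in a latent form that must be freed before it can act. On regulatory T cells the latent form is held by GARP, the product of Lrrc32, and integrin alpha-v beta-8, whose beta chain is encoded by Itgb8, can release it. Active TGF-beta binds a receptor of type 2 (Tgfbr2) and type 1 (Tgfbr1) chains, and Smad7 is both a target and an inhibitor of that signal. Interleukin-10 is a cytokine that restrains macrophages and dendritic cells; its receptor pairs Il10ra, found mainly on leukocytes, with Il10rb, a widely made chain that other cytokines of the family also use.

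The windows before both receptor genes are shown because the 2 chains of the TGF-beta receptor had like ratios in mononuclear phagocytes, given further on. Each is the 250 bases before the RefSeq start, 5′ to 3′ on the gene's strand, build GRCm38.p6: Tgfbr1 on the plus strand at chr4:47352972-47353221 and Tgfbr2 on the minus strand at chr9:116175364-116175613. Capitals mark matches, on either strand, to CAGAC, the core of the box that SMAD proteins bind, or to GGGCGG, the core of the GC box.
Tgfbr1: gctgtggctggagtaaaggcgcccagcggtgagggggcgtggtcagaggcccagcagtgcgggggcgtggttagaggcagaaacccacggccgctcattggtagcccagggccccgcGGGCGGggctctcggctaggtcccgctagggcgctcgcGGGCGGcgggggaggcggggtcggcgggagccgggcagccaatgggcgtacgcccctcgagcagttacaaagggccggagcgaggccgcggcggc
Tgfbr2: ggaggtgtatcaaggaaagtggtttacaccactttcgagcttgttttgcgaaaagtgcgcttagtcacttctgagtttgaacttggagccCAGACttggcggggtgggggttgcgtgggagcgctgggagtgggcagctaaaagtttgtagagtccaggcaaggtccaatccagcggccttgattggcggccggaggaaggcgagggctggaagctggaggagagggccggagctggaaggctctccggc
The Tgfbr1 window held 2 matches to GGGCGG and 0 to CAGAC, and the Tgfbr2 window held 1 match to CAGAC and 0 to GGGCGG. Of 32851 windows of the same length in the RefSeq table, 42.2% held CAGAC and 32.7% held GGGCGG, so neither match sets these genes apart. Of the 9 genes, 4 had a window in that table, Tgfb1, Itgb8, Tgfbr1 and Tgfbr2.

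The genes lie on GRCm38 at chr7:25687002-25705077 (Tgfb1, plus strand), chr12:119158022-119238802 (Itgb8, minus), chr7:98489283-98502181 (Lrrc32, plus), chr4:47353222-47414931 (Tgfbr1, plus), chr9:116084293-116175360 (Tgfbr2, minus), chr18:75367529-75395935 (Smad7, plus), chr1:131019845-131024974 (Il10, plus), chr9:45253837-45269149 (Il10ra, minus) and chr16:91406164-91425834 (Il10rb, plus). All are annotated as protein-coding. Il10rb shares its locus and strand with Gm21970, a gene that the files list with 0 unique molecular identifiers (UMIs, 1 per captured RNA molecule) in both libraries, so the level of Il10rb is uncertain where reads could belong to either.

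The OX40 agonist library held 118059108 UMIs in 8569 barcodes, with a median of 7309 per barcode, and the control library held 114026695 in 7187, with a median of 8927. After filters and removal of likely doublets, 6980 and 5987 cells were kept. The libraries shared 18 barcodes, and 2 of these fell in the same class in both. Cells were assigned to 11 classes by UMIs of marker genes, none of them among the 9. A level is the UMIs of a gene summed over a class, scaled to 1000000 UMIs of that class and written CPM. Although the sort was for CD45, 589 treated and 408 control cells passed the gate for melanoma markers. Those markers summed to 14934 CPM in treated and 15539 CPM in control melanoma cells, with Ptprc, which encodes CD45, at 3.07 and 6.73 CPM. Levels carry exact Poisson 95% intervals, ratios of OX40 agonist over control an exact interval conditional on both counts, and shares of cells an exact Clopper-Pearson interval. All of these cover counting error only, and with 1 library per group nothing was tested between mice. A gene was called higher or lower at a ratio of at least 1.5, or its inverse, with an interval clear of 1, at least 10 CPM in either library and at least 30 UMIs over both. Levels are compared between classes and libraries but not between genes.

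Among 7 classes with at least 50 cells in each library there were 63 pairs of a gene and a class, and 42 of them passed the minimum. Of those 42 pairs, 2 were higher and 1 was lower in treated tumours. Itgb8 was higher in regulatory T cells, Il10 was higher in mononuclear phagocytes (monocytes and macrophages), and Smad7 was lower in type 2 conventional dendritic cells (cDC2). In all, 17 ratios were above 1 and 25 below. By the same rule the share of all genes called higher was 0.272% in CD8 T cells, 1.81% in regulatory T cells, 1.53% in NK cells, 1.33% in mononuclear phagocytes, 1.68% in mature migratory dendritic cells, 2.48% in cDC2 and 0.179% in melanoma cells. The share called lower was 0.586%, 2.85%, 2.96%, 1.48%, 3.2%, 3.86% and 1.83% in those classes in that order. Over the 7 classes together, 4.76% of the 42 pairs were called higher, against 1.26% of 47354 pairs over all genes, and 2.38% were called lower, against 2.32%. The higher share rests on 2 pairs, and the lower share is near that of all genes. The median log2 ratio over all genes was between -0.04 and 0.04 in each class.

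**Figure D1:**
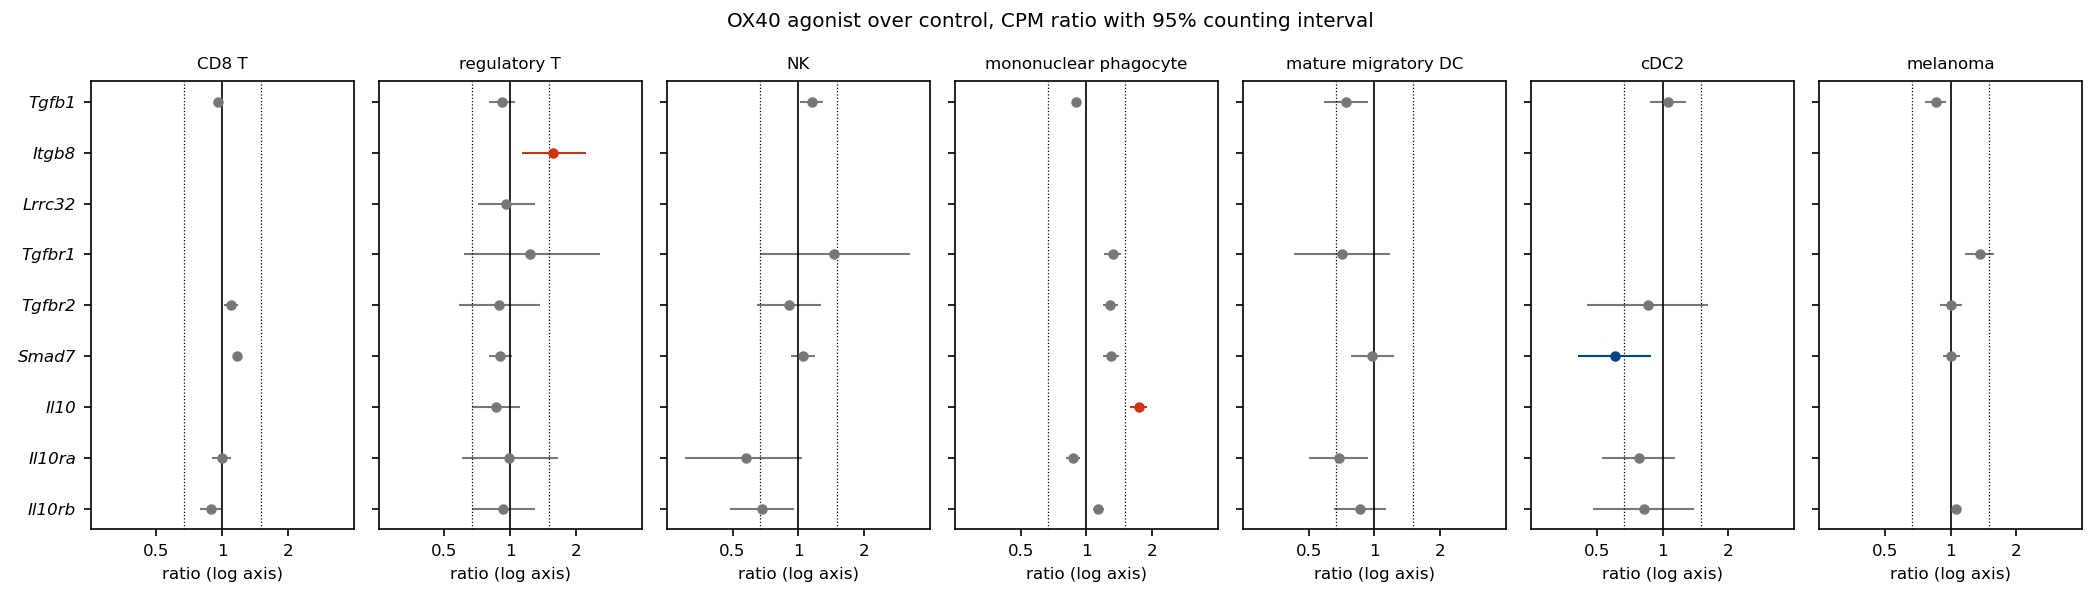
Ratio of OX40 agonist over control CPM (x, log axis) for each gene (y) in the 7 classes with at least 50 cells per library, with 95% counting intervals; only pairs past the minimum are drawn, and dotted lines mark 1.5-fold. The red points are the 2 pairs called higher (Itgb8 in regulatory T cells at 1.58, Il10 in mononuclear phagocytes at 1.74) and the blue point the 1 called lower (Smad7 in cDC2 at 0.604).

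Tgfb1, the ligand, was detected in all 11 classes and was not called in any with at least 50 cells. It was highest in NK cells, at 468 CPM in treated and 405 CPM in control tumours, and lowest in melanoma cells, at 17.9 and 20.9 CPM. CD8 T cells had 281 CPM in the treated and 295 CPM in the control library, mononuclear phagocytes 276 and 307 CPM, regulatory T cells 251 and 274 CPM, and cDC2 246 and 233 CPM. Among those 4 classes in the treated library the intervals of neighbours in that order overlapped, so their order is not resolved. Mature migratory dendritic cells, the class of dendritic cells marked by Ccr7 and Fscn1, stood far below, at 47.0 CPM in treated and 63.3 CPM in control tumours, and cDC1 between, at 133 and 174 CPM. In mature migratory dendritic cells the ratio was 0.74 (0.59 to 0.94), in mononuclear phagocytes 0.90 (0.87 to 0.93) and in NK cells 1.15 (1.02 to 1.30). Over all kept cells the ratio was 0.80, lower than in 6 of the 7 classes.

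**Figure D2:**
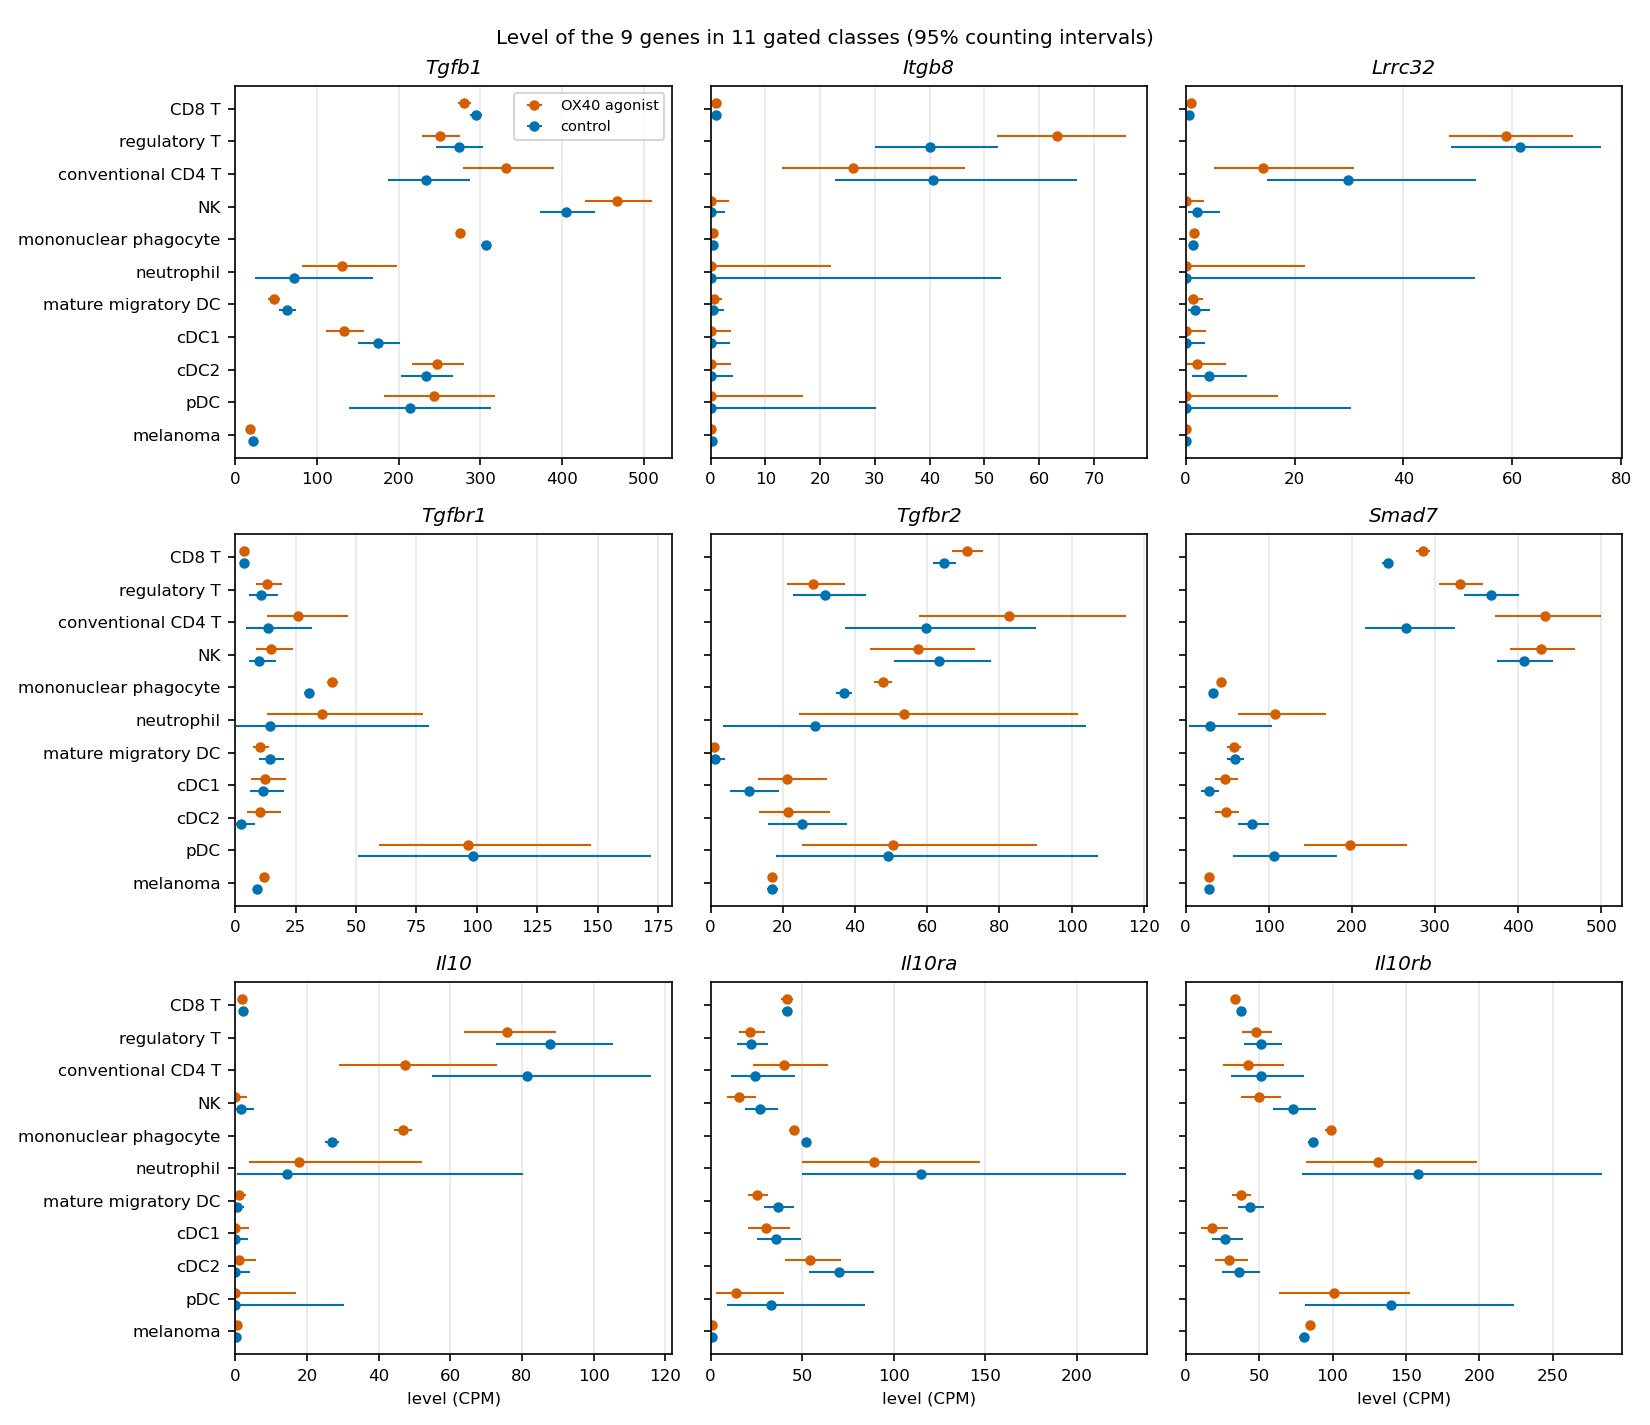
Level of each of the 9 genes (x, CPM, a separate scale per panel) in 11 gated classes (y), OX40 agonist in orange above control in blue; points are 1 library each and bars are exact Poisson 95% intervals. Itgb8 and Il10 are high in regulatory and conventional CD4 T cells, Il10 also in mononuclear phagocytes, Lrrc32 in regulatory T cells, and Smad7 in T and NK cells; neutrophils, pDC, cDC1 and conventional CD4 T cells have under 50 cells in control and wide bars.

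Within the phagocytes, Tgfb1 was highest in the monocyte subsets. Nonclassical monocytes had 501 CPM in treated and 547 CPM in control tumours and classical monocytes 471 and 507 CPM, against 227 and 236 CPM in macrophages marked by Fcrls, Folr2 and Gas6. Both monocyte subsets were above all 3 macrophage subsets in each library, with no overlap of intervals.

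Itgb8, the beta chain of the integrin that frees latent TGF-beta, was higher in regulatory T cells of treated tumours. The 277 treated regulatory T cells held 116 UMIs, or 63.3 CPM, and the 167 control cells held 53 UMIs, or 40.2 CPM. The intervals of the 2 levels overlapped only at their ends, and the ratio was 1.58 (1.13 to 2.22). In this class 1.81% of 7335 genes were called higher. Itgb8 had at least 1 UMI in 28.5% of treated and 21.6% of control regulatory T cells. With every cell thinned to 1000 UMIs the shares were 7.97% and 2.44%, the second from 4 cells. Against these, 0.977% of treated and 1.08% of control CD8 T cells had a UMI of Itgb8, at median depths of 10124 and 12458 UMIs, deeper than the 4416 and 5701 of regulatory T cells, and 0.244% and 0% did after thinning. Without doublet removal the ratio was 1.44, below the 1.5-fold mark.

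Outside T cells few Itgb8 UMIs were counted in any named class. Levels were at or below 1.07 CPM in CD8 T cells, mononuclear phagocytes, mature migratory dendritic cells and melanoma cells of both libraries, and 0 UMIs were counted in NK cells, cDC1, cDC2, pDC and neutrophils. In the 269 treated and 256 control NK cells, 3 UMIs would have amounted to 2.73 and 2.13 CPM. CD4 T cells without a UMI of Foxp3 had 26.0 CPM in treated and 40.6 CPM in control tumours, from 11 and 15 UMIs, so that the control level was no lower than in regulatory T cells. That gate still held other regulatory T cell markers, at a summed 2035 and 1612 CPM against 3309 and 3654 CPM in regulatory T cells, and how many of its cells were regulatory T cells in which Foxp3 was missed was not tested. Regulatory T cells made up 3.97% of kept cells in the treated and 2.79% in the control library, and they held 52.7% and 33.3% of the Itgb8 UMIs. T cells outside the CD8, regulatory and conventional CD4 gates held 11.8% and 6.29%, and cells past the gates of more than 1 lineage, which belong to no class, 14.1% and 22.6%.

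Lrrc32, which encodes the anchor GARP, was highest in regulatory T cells in both libraries and was not called. Regulatory T cells held 108 UMIs, or 58.9 CPM, in treated tumours and 81 UMIs, or 61.4 CPM, in control tumours, a ratio of 0.96 (0.71 to 1.30). They held 46.6% of the Lrrc32 UMIs of treated and 36.7% of those of control cells. Mononuclear phagocytes had 1.49 and 1.34 CPM. Itgb8 and Lrrc32 were found in the same cell in 17 of 277 treated and 15 of 167 control regulatory T cells. In the treated library Lrrc32 was seen in 21.5% of cells with a UMI of Itgb8 and in 31.3% of the rest, and in the control library in 41.7% and 29.8%. Phagocyte markers were present at low level in the class, at a summed 349 and 337 CPM against 15675 and 16697 CPM in mononuclear phagocytes. Foxp3, a gate marker, was at 335 CPM in treated and 362 CPM in control regulatory T cells.

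Among classes with at least 50 cells in each library, the type 2 receptor chain, Tgfbr2, was highest in CD8 T and NK cells. CD8 T cells had 71.0 CPM in treated and 64.7 CPM in control tumours, NK cells 57.3 and 63.2 CPM, and mononuclear phagocytes 47.7 and 37.0 CPM. CD8 T and NK intervals overlapped in each library. The phagocyte subset marked by Fcrls, Folr2 and Gas6 had 77.7 CPM in treated and 72.3 CPM in control tumours. Regulatory T cells stood lower, at 28.4 and 31.8 CPM, and cDC2 at 21.6 and 25.2 CPM. Mature migratory dendritic cells had almost none, with 3 UMIs in each library, or 0.844 and 1.34 CPM. In cDC2 of both libraries the level was above that of mature migratory cells with no overlap of intervals. Melanoma cells had 17.1 CPM in each library, a ratio of 1.00 (0.89 to 1.13).

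The type 1 chain, Tgfbr1, had another distribution. Among classes with at least 50 cells it was highest in mononuclear phagocytes, at 40.0 CPM in treated and 30.4 CPM in control tumours, and low in CD8 T cells, at 3.74 and 3.40 CPM. In pDC, a class of 35 and 14 cells, it reached 96.4 and 98.6 CPM, with a lower bound above the upper bound of the phagocytes in both libraries. Melanoma cells had 11.9 and 8.79 CPM, a ratio of 1.36 (1.16 to 1.59), short of the 1.5-fold rule, and it was 0.959 as a mean over cells and 0.671 after thinning to 1000 UMIs.

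Both receptor chains and Smad7 had like ratios in mononuclear phagocytes, short of the 1.5-fold rule, with intervals clear of 1 and the higher level in the treated library. The ratio was 1.32 (1.21 to 1.44) for Tgfbr1, 1.29 (1.19 to 1.40) for Tgfbr2 and 1.30 (1.19 to 1.41) for Smad7, which had 43.1 CPM in treated and 33.3 CPM in control phagocytes. Their log2 ratios of 0.40, 0.37 and 0.38 lay above the 95th percentile of all 7044 genes in this class, which was 0.34. The subsets of phagocytes were not present in the same proportions, with 612 Fcrls macrophages in the treated and 189 in the control library. Holding the subsets at their control proportions, an alternative added after seeing the data, gave 1.27 for Tgfbr1, 1.07 for Tgfbr2 and 1.30 for Smad7. Over all alternatives the ratio lay between 1.27 and 1.38 for Tgfbr1, 1.07 and 1.30 for Tgfbr2, and 1.11 and 1.37 for Smad7. Tgfbr2 was at 77.7 and 72.3 CPM in Fcrls macrophages, above every other phagocyte subset. The Tgfbr2 ratio was 0.75 in classical monocytes, 0.995 in phagocytes outside the named subsets and above 1 in the other subsets. For Tgfbr1 and Smad7 the ratio was above 1 in all 6 subsets, between 1.15 and 1.53 for Tgfbr1 and between 1.18 and 2.10 for Smad7. The Tgfbr1 intervals spanned 1 in nonclassical monocytes, macrophages marked by Arg1 and Spp1, and phagocytes outside the named subsets. Those of Smad7 spanned 1 in both monocyte subsets and in phagocytes outside the named subsets. The Smad7 ratio of 2.10, in nonclassical monocytes, came from 17 treated and 10 control UMIs, under the minimum of 30.

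Smad7, the inhibitor that TGF-beta signalling itself induces, was highest in T and NK cells. NK cells had 428 CPM in treated and 407 CPM in control tumours, regulatory T cells 330 and 367 CPM, and CD8 T cells 285 and 243 CPM. In each library the interval of CD8 T cells lay below that of regulatory T cells. Mature migratory dendritic cells had 58.0 and 59.3 CPM, and melanoma cells 28.0 and 27.8 CPM. CD8 T cells had a ratio of 1.17 (1.13 to 1.22), log2 0.23, above the 95th percentile of 0.21 in that class, in which 0.272% of genes were called higher. After thinning to 1000 UMIs the Smad7 ratio in CD8 T cells was 1.11, below the counting interval. In CD4 T cells without Foxp3, at 433 CPM in 81 treated and 265 CPM in 48 control cells, the ratio was 1.63 (1.27 to 2.10), and in cDC1, at 47.4 and 28.0 CPM in 67 and 45 cells, it was 1.69 (1.04 to 2.78); both classes are under the minimum of 50 cells in control.

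The call for Smad7 in cDC2 rested on few molecules. There were 47 UMIs in 104 treated cDC2, or 48.3 CPM, and 73 in 81 control cDC2, or 80.0 CPM, a ratio of 0.604 (0.41 to 0.88). In this class 3.86% of 5282 genes were called lower. Markers of T cells moved the same way, at a summed 10.3 CPM in treated and 75.6 CPM in control cDC2 over 4 genes, and those of regulatory T cells, at 12.3 and 70.1 CPM over 4 genes. Foxp3 was at 1.03 and 9.86 CPM there, and Cd4 at 0 in both. CD8 T cells had 285 and 243 CPM of Smad7, and the part of this T cell RNA in the result was not tested. The ratio was 0.978 with gate thresholds doubled, 0.748 when classes came from unsupervised clusters and 1.54 after thinning, from 10 treated and 4 control cells with a UMI.

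Most Il10 UMIs lay in mononuclear phagocytes, and the gene was higher in those of treated tumours. The 2887 treated phagocytes held 1417 UMIs, or 46.8 CPM, and the 2329 control phagocytes held 783 UMIs, or 26.9 CPM. The ratio was 1.74 (1.59 to 1.90), and the intervals of the levels were far apart. In this class 1.33% of 7044 genes were called higher. Il10 had a UMI in 13.0% of treated and 9.83% of control phagocytes, and in 3.05% and 1.44% after thinning to 1000 UMIs. In CD8 T cells, which held 1.93 and 1.97 CPM, the unthinned shares were 1.71% and 1.91% at greater depth, and 0.244% and 0.127% thinned. Phagocytes held 79.2% of the Il10 UMIs of kept cells in the treated and 67.0% in the control library, against 41.4% and 38.9% of the cells. Over all kept cells the level was 17.8 CPM in the treated and 11.7 CPM in the control library, a ratio of 1.52 (1.41 to 1.64), where 1.08% of genes were called higher and 1.67% lower.

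**Figure D3:**
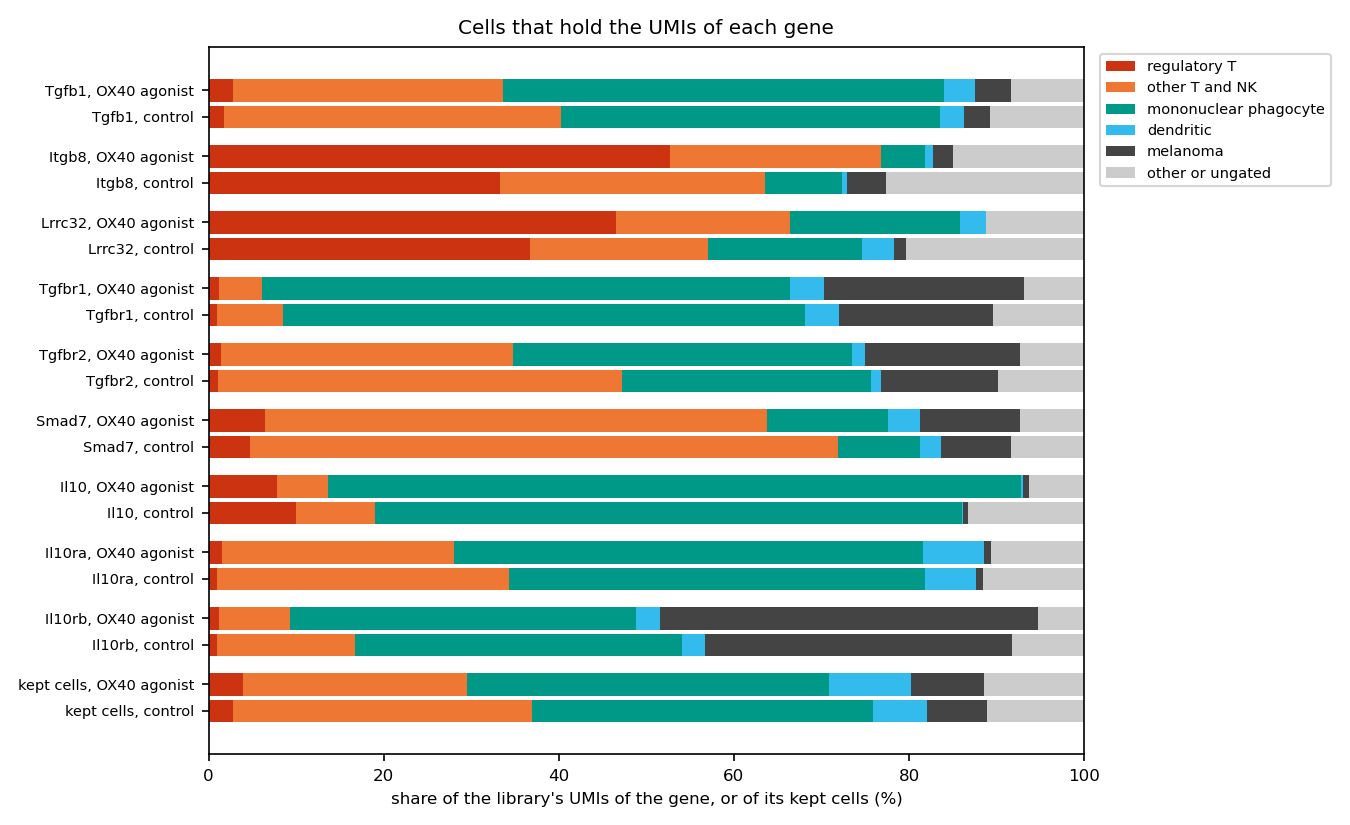
Share (x, %) of each gene's UMIs over kept cells that came from regulatory T cells, other T and NK cells, mononuclear phagocytes, dendritic cells, melanoma cells and all others, with the OX40 agonist bar above the control bar; the last pair of bars gives the share of kept cells. Regulatory T cells hold 52.7% and 33.3% of Itgb8, mononuclear phagocytes 79.2% and 67.0% of Il10, and melanoma cells 43.2% and 35.1% of Il10rb UMIs.

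Subsets of phagocytes differed widely in Il10. Fcrls macrophages were highest, at 78.7 CPM in treated and 68.1 CPM in control tumours, then macrophages high in C1q, at 43.1 and 29.2 CPM, and those marked by Arg1 and Spp1, at 37.2 and 21.9 CPM. The intervals of the C1q and Arg1 subsets overlapped in each library. Classical monocytes had 7.01 and 3.26 CPM and nonclassical monocytes 2.08 and 5.05 CPM, the last from 1 and 3 UMIs. The ratio was 1.16 (1.00 to 1.34) in Fcrls macrophages, where 2.28% of genes were called higher and 4.34% lower, 1.48 (1.30 to 1.68) in the C1q subset and 1.70 (1.22 to 2.38) in the Arg1 subset, the second of these just short of the rule. Il10 was called higher in the Arg1 subset, where 3.22% of genes were called higher and 3.13% lower, and at 2.09 in phagocytes outside the named subsets, where 4.6% were higher and 2.79% lower. It was not called in the C1q subset, where 0.862% were higher and 1.31% lower. In classical monocytes the ratio was 2.15 (1.09 to 4.43), from 27 treated and 14 control UMIs. The level there was under the minimum of 10 CPM, so the rule could not call it. Of the genes past the minimum in that subset, 1.34% were higher and 1.73% lower. At control proportions of the subsets the treated level was 38.2 CPM and the ratio 1.42, so the call ended there.

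**Figure D4:**
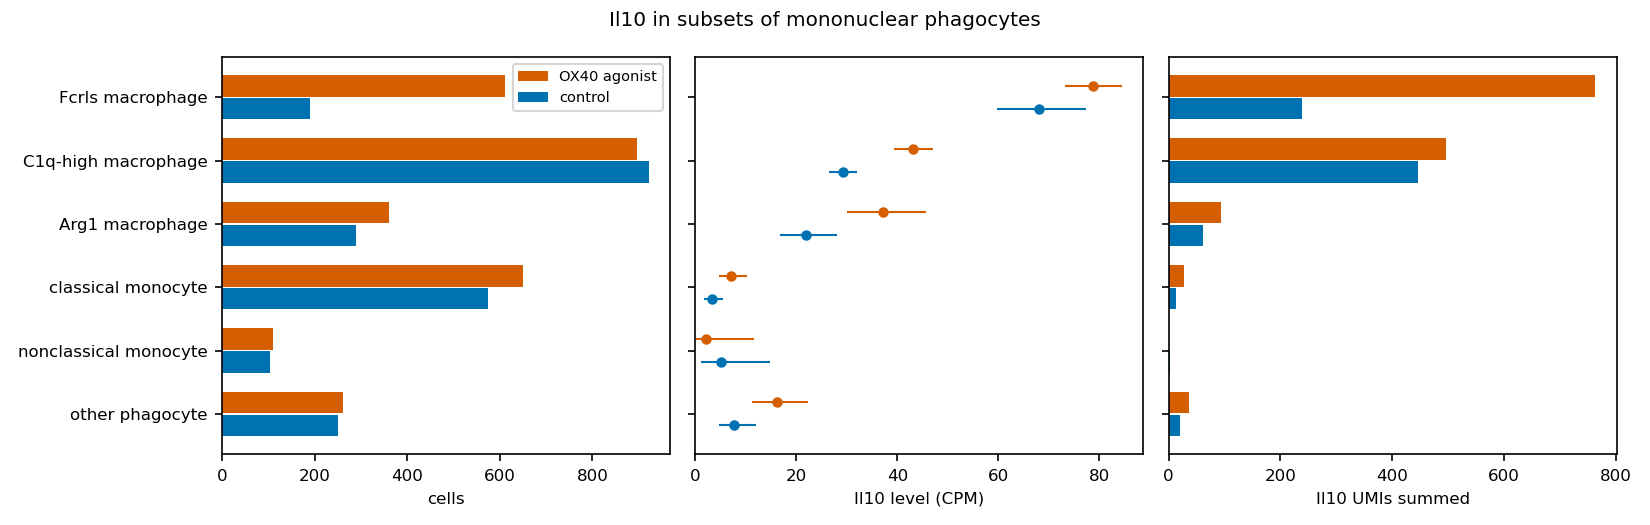
Cells (left, number), Il10 level (middle, CPM with exact Poisson 95% intervals) and summed Il10 UMIs (right) in 6 subsets of mononuclear phagocytes, OX40 agonist in orange above control in blue, 1 library each. Fcrls macrophages number 612 and 189 and have the highest level in both libraries, at 78.7 and 68.1 CPM; C1q-high, Arg1 and other phagocytes are higher in the treated library.

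A minority of phagocytes held all of the Il10 UMIs of the class. Among 374 treated and 229 control phagocytes with at least 1 UMI the mean was 3.79 and 3.42 UMIs and the median 2 and 1. The 38 and 23 cells richest in Il10, 10% of the positive ones rounded up, held 40.9% and 43.0% of the UMIs. Cells with 5 or more UMIs made up 3.05% (2.45 to 3.74) of treated and 2.06% (1.52 to 2.72) of control phagocytes, and the intervals overlapped. The single richest cell held 2.61% and 4.47% of the UMIs. T cell markers summed to 47.6 CPM in treated and 54.4 CPM in control phagocytes, regulatory T cell markers to 36.4 and 25.9 CPM, and platelet markers to 16.5 and 5.98 CPM, each list holding 4 genes. Foxp3 was at 2.90 and 1.03 CPM, and the part of regulatory T cell RNA in phagocyte Il10 was not tested.

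Per UMI, Il10 was higher in regulatory T cells than in phagocytes in both libraries, and it was not called in regulatory T cells. Regulatory T cells had 75.8 CPM in treated and 87.9 CPM in control tumours, a ratio of 0.86 (0.67 to 1.11). In the treated library 1 cell held 18.7% of their UMIs. CD4 T cells without a UMI of Foxp3 had 47.3 CPM in treated and 81.3 CPM in control tumours, from 20 and 30 UMIs. Of the control UMIs 1 cell held 43.3%. The level was above the 26.9 CPM of control phagocytes and near the 46.8 CPM of treated ones. The ratio in these CD4 T cells was 0.58 (0.31 to 1.06). Among regulatory T cells, 22.7% of treated and 28.7% of control cells had a UMI of Il10. Il10 and Itgb8 occurred in the same cell in 17 of 277 treated and 12 of 167 control regulatory T cells. In cDC1 and pDC no UMI of Il10 was counted in either library, and 3 UMIs would have amounted to 3.02 and 2.90 CPM in cDC1. Melanoma cells had 0.312 and 0.237 CPM.

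The ligand-binding receptor chain, Il10ra, was present in every leukocyte class. Levels in treated and control tumours were 54.4 and 70.1 CPM in cDC2, 45.3 and 52.3 CPM in mononuclear phagocytes, 41.5 and 41.6 CPM in CD8 T cells, 25.3 and 37.0 CPM in mature migratory dendritic cells and 21.8 and 22.0 CPM in regulatory T cells. Melanoma cells were at 0.572 and 0.846 CPM, and Ptprc, given above, had its lower level in the same library; its part in the result was not tested. The ratio was 0.87 (0.81 to 0.93) in mononuclear phagocytes, 0.68 (0.50 to 0.93) in mature migratory dendritic cells and 0.57 (0.30 to 1.04) in NK cells, from 17 treated and 38 control UMIs. None of the 7 classes gave a call. Among phagocyte subsets Il10ra was highest in nonclassical monocytes, at 97.8 CPM in treated and 165 CPM in control tumours. It was lower in the treated ones at a ratio of 0.59 (0.41 to 0.85), from 47 treated and 98 control UMIs. In that subset 2.63% of 4031 genes were called higher and 2.9% lower. The C1q genes, which mark macrophages, summed there to 659 CPM in treated and 227 CPM in control cells. The part of macrophage RNA in the result was not tested. In Fcrls macrophages, which had the most Il10, Il10ra was at 34.8 and 49.2 CPM, a ratio of 0.71 (0.59 to 0.85).

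Il10rb, the shared chain, had the largest share of UMIs in melanoma cells among the 9 genes. Melanoma cells were 8.44% of kept cells in the treated and 6.81% in the control library and held 43.2% and 35.1% of the Il10rb UMIs; a melanoma cell held a median of 65768 and 73004 UMIs in all, and the level was 84.8 and 80.5 CPM. Mononuclear phagocytes had 98.7 and 86.8 CPM, above melanoma in the treated library. The phagocyte and melanoma intervals overlapped by a narrow margin in control. NK cells held 55 UMIs in treated and 103 in control tumours, a CPM ratio of 0.68 (0.48 to 0.96) that missed the call, and CD8 T cells 33.6 and 37.9 CPM. With gate thresholds doubled, Il10rb in NK cells was called lower. No gene of the 9 listed other users of Il10rb, such as Il22 and Ifnlr1, passed the minimum in any of the 7 classes.

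The 9 genes were set against others by Pearson correlation of log2(CPM + 10) over 14 levels, 7 classes in 2 libraries, among 5021 genes with at least 50 CPM in a class. These points share cells and depth, and the values are a description. Closest to Itgb8 were Cd4 (0.993), Foxp3 (0.980) and Lrrc32 (0.979), and closest to Lrrc32 were Foxp3 (0.992), Cd4 (0.985) and Itgb8 (0.979). Foxp3 is a gate marker of regulatory T cells. Cd4 was not used in that gate, but regulatory T cells were the only CD4 T cells among the 7 classes. CD4 T cells without a UMI of Foxp3 were left out for their number. They had 314 CPM of Cd4 in treated and 222 CPM in control tumours, against 134 and 126 CPM in regulatory T cells. The correlation with Cd4 therefore cannot tell regulatory from other CD4 T cells. Closest to Il10 were Maf (0.955), Ecm1 (0.919) and Rap1gds1 (0.915). Maf, a transcription factor known to act at the Il10 gene, had 210 CPM in treated and 169 CPM in control phagocytes and 477 and 449 CPM in regulatory T cells. Smad7 was nearest to Ppp1r16b (0.990), Tgfb1 to Dok2 (0.982), Il10ra to Casp1 (0.953), Tgfbr2 to Bag1 (0.929), Il10rb to Rhob (0.916) and Tgfbr1 to Zfp703 (0.910).

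Among 60 further genes of both pathways, 195 pairs of a gene and a class passed the minimum, with 8 called higher, or 4.10%, and 6 lower, or 3.08%. Over all genes in the same 7 classes the shares were 1.26% and 2.32%. CD8 T cells and melanoma cells had none. Pmepa1, which TGF-beta induces and which restrains its signal, was higher in 3 classes: mononuclear phagocytes, at 20.6 CPM in treated and 11.9 CPM in control tumours (ratio 1.74), mature migratory dendritic cells, at 30.4 and 20.1 CPM (1.52), and cDC2, at 31.8 and 13.1 CPM (2.42). In CD8 T cells it had 28.7 and 19.4 CPM, a ratio of 1.48. The cDC2 call for Pmepa1 rested on 31 treated and 12 control UMIs, with 16.7% of the control UMIs in 1 cell. In mature migratory dendritic cells there were 108 and 45 UMIs of Pmepa1, with 13.3% of the control UMIs in 1 cell. Pmepa1 belongs to the list of TGF-beta inhibitors and feedback. Of the 6 genes of that list that passed in phagocytes, 5 had ratios above 1, with a median log2 of 0.25 against 0.01 over all genes. Other lists went the other way in phagocytes. Of 5 TGF-beta-induced genes, 2 had ratios above 1 and 3 below, with a median log2 of -0.15. Of 4 genes of TGF-beta receptors and signal, 1 was above 1 and 3 below, with a median of -0.13. In cDC2, where Smad7 was lower, 4 of 5 genes of inhibitors and feedback had ratios above 1. Tgif1, a SMAD corepressor, was higher there at 80.1 CPM in treated and 49.3 CPM in control cells. In NK cells Ski, another corepressor, was higher, at 62.8 and 33.4 CPM. Thbs1 was lower there, at 4.55 and 51.1 CPM, with 56.9% of the control UMIs in 1 cell.

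In regulatory T cells 3 of 29 such genes were higher and 2 lower, where 1.81% and 2.85% of all 7335 genes were. Itgae, a TGF-beta-induced integrin chain, had 42.0 CPM in treated and 25.8 CPM in control tumours, from 77 and 34 UMIs. Irf4, a transcription factor of activated regulatory T cells, had 23.5 and 11.4 CPM, from 43 and 15 UMIs. Socs3, a feedback inhibitor of cytokine receptors, had 86.7 and 56.1 CPM, from 159 and 74 UMIs. In the control library 1 cell held 17.6% of the Itgae, 6.67% of the Irf4 and 8.11% of the Socs3 UMIs. Tgfbi and Il1rn were lower, at ratios of 0.583 and 0.589. Both are abundant in mononuclear phagocytes, at 605 and 676 CPM for Tgfbi, and 1 cell held 37.9% of the Tgfbi and 36.4% of the Il1rn UMIs of control regulatory T cells. In mature migratory dendritic cells Irf4, at 8.16 and 16.5 CPM, Bcl3, at 22.8 and 35.6 CPM, and Tgfbi were lower, 3 of 29 such genes, where 3.2% of all 6536 genes were.

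Genes of interleukin-10 receptor signalling and response had ratios below 1 in mononuclear phagocytes, where Il10 was higher. All 10 of the list passed the minimum and none was called. Of the 10 ratios, 8 had an interval below 1 and those of Jak1 and Etv3 spanned 1. The median log2 ratio was -0.24 against 0.01 over all 7044 genes. Stat3, the main signal carrier, had 93.8 CPM in treated and 112 CPM in control phagocytes, a ratio of 0.84 (0.80 to 0.88). Socs3, a STAT3 target, had 221 and 269 CPM, a ratio of 0.82 (0.79 to 0.85). Nfil3 had 161 and 212 CPM, and Bcl3 23.3 and 30.8 CPM, at ratios of 0.76 each. Many of these genes also answer to other cytokines. The part of the unequal subset proportions in these ratios was not tested.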

How the data were processed

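Droplet RNA counts were analysed for 1 library of leukocytes from OX40 agonist-treated mice and 1 from control mice. The deposited matrices hold UMI counts per gene and barcode, whole numbers without normalization, made by the authors with Cell Ranger 3.1.0, per the file headers, on build mm10, per the submitters' processing notes. The gene annotation behind them is not given in those sources; positions came from GENCODE, by gene ID, and upstream windows from RefSeq, build GRCm38.p6. The 3′ chemistry samples transcript ends, so counts are not per length.

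Filters asked for 500 UMIs, 200 genes and a mitochondrial share of no more than 10%, and 7500 of 8569 treated and 6354 of 7187 control barcodes passed. A doublet score as Scrublet defines it was computed with scanpy 1.11.5; its automatic threshold marked under 0.1% of barcodes and was not used, and the top-scoring 520 treated and 367 control barcodes were dropped, a rate of 0.8% for each 1000 barcodes. Classes came from UMIs of marker lists per 10000 UMIs of a cell, with thresholds set from the markers' distributions; a cell past the gates of several lineages belonged to none (233 treated, 252 control). Sums, ratios and intervals were computed with Python 3.11.15 and scipy 1.17.1. The size rule was run on simulated Poisson counts, with 2-fold changes set only in genes of at least 50 CPM. Recovery of changes near 1.5-fold or near 10 CPM, or with UMIs concentrated in few cells, was not examined. Shares of cells were computed unthinned and after thinning to 1000 UMIs, leaving out shallower cells.

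The 9 genes and the further lists were chosen with earlier results of these data known. Further genes are named where called, at most 3 per class and direction, and those nearest in pattern at most 3 per gene. Genes of the interleukin-10 response list in phagocytes were named after their values were seen. There are no replicates. Alternatives were gates, clusters, filters, thinning, scaling, minima and fold.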

Additional observations from a re-analysis of the deposited data

Results flagged for a closer look

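The ratio of Smad7 in cDC2, 0.604 (0.41 to 0.88), stood out because it runs against those of CD8 T cells, 1.17 (1.13 to 1.22), and of mononuclear phagocytes, 1.30 (1.19 to 1.41), with no overlap of the counting intervals. With 1 library per group the difference between classes was not tested. It rests on 47 treated and 73 control UMIs, beside T cell markers at a summed 10.3 CPM in treated and 75.6 CPM in control cDC2.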

How the results depend on the processing

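No paired analysis was possible because each group is 1 library, and for the same reason no replicate could be left out. Of the pairs of a gene and a class, 2 were higher as reported; 1 was without doublet removal (Itgb8 in regulatory T cells had a ratio of 1.44), 1 after thinning to 1000 UMIs, 1 at a minimum of 50 CPM, which Il10 in phagocytes does not reach, and 0 at 2-fold. The 1 lower pair was 0 with classes from clusters and 0 at 2-fold; with doubled gates the lower pair was Il10rb in NK cells, with Smad7 in cDC2 at 0.978; after thinning the lower pair was Smad7 in mature migratory dendritic cells, at 0.445, and Smad7 in cDC2 turned to 1.54, and the cause was not tested. Over all genes and the 7 classes, 1696 calls became 540 at 50 CPM, 4276 without a minimum and 574 at 2-fold. The median share of cells with a UMI was 4.75% thinned and 33.6% unthinned. The ratio of Il10 in phagocytes lay between 1.42 and 2.15 over its alternatives, and that of Itgb8 in regulatory T cells between 1.44 and 3.71. Of 469 combinations of the 42 ratios and an alternative, 435 stayed inside the counting interval, 33 left it and 1 called ratio reversed. Doubled gates and the barcodes found in both libraries left Il10 and Itgb8 called. Precision is limited by the number of UMIs in a class.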
